A study of Homo sapiens with 12 samples.

Results

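The genes described here encode the machinery that builds iron-sulfur clusters and hands them to the proteins that need them. They were chosen by name, from a list of 32 gene symbols, and each symbol was represented by the Ensembl identifier with the most reads. An identifier in the count table could be paired with 31 of the 32 symbols, and all 31 had enough reads to be tested, among 13832 tested identifiers and 57905 in all. CISD3 was not analysed here. By the place of work of the encoded protein, 19 genes belonged to the mitochondrial machinery and 10 to the cytosolic machinery, and 2 (CISD1 and CISD2) encode CDGSH proteins, which carry a cluster of their own.

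The cells were OCI-AML3, an established line from human acute myeloid leukaemia, and 12 libraries formed 4 groups of 3. In the drug arm the cells were given SA at 500 µM or only its vehicle, in either case for 6 days; the labels do not spell out SA, which in studies of heme usually stands for succinylacetone, a blocker of ALAD, an early enzyme of heme synthesis. In the guide arm, transduced cells held guide RNAs, either against ALAS1 (group sgALAS1) or scrambled (group sgSCR), and both groups were kept in doxycycline for 7 days so that the guide was made. The labels say neither which nuclease the cells carried nor whether a group was 1 clone, and they do not tell whether replicates were separate cultures, so the p-values speak only of the spread among these libraries.

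Iron-sulfur clusters are small inorganic cofactors of electron carriers, of enzymes such as aconitase and of many proteins that copy or repair DNA. In mitochondria the cysteine desulfurase NFS1, held by LYRM4 and the acyl carrier protein NDUFAB1, supplies sulfur to the scaffold ISCU, with electrons from the ferredoxin FDX2. The chaperones HSCB and HSPA9 then move the cluster to GLRX5, and later factors convert and insert it. The cytosolic machinery depends on a product of the mitochondrial one: it assembles clusters on NUBP1 and NUBP2 with electrons from NDOR1 and CIAPIN1, and CIAO3 passes them to a targeting complex of CIAO1, CIAO2B and MMS19. Heme synthesis shares its mitochondrial iron supply with this pathway, through the importers SLC25A37 and SLC25A28, and ends with FECH, which is itself a cluster protein.

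The libraries were made with QuantSeq, which reads polyadenylated transcripts at their 3′ end, and each held between 4658513 and 7339843 assigned reads. ALAS1, the targeted gene, was at 38.6, 41.9 and 37.4 CPM, that is, counts normalised to library size, in sgSCR and 26.2, 26.3 and 27.3 CPM in sgALAS1, where it fell by 0.56 on the log2 scale (SE 0.14, adjusted p = 0.00777 by edgeR's quasi-likelihood test). Without sgSCR replicate 2 this was -0.51, with an adjusted p of 0.0503. A 3′ tag does not show whether the guide cut its site. All 8 myeloid markers had reads, and their summed level was 2115 to 2480 CPM in Vehicle and 2996 to 3344 CPM in SA, and 1958 to 2170 CPM in sgSCR and 2678 to 2885 CPM in sgALAS1. Of the lymphoid markers, 4 of 5 had reads, with sums of 12.5 to 15.9 CPM in Vehicle, 0.583 to 1.99 in SA, 4.66 to 5.78 in sgSCR and 0 to 0.909 in sgALAS1. Erythroid and megakaryocyte markers stayed at or under 2.39 CPM in every library. All 5 stromal and epithelial markers had reads, with sums of 716 to 860 CPM in Vehicle, 615.5 to 729 in SA, 472 to 627 in sgSCR and 714 to 801 in sgALAS1, mostly from VIM. VIM rose with sgALAS1 (0.46, SE 0.11, adjusted p = 0.0065; 0.0732 without sgSCR replicate 1) and was lower in sgSCR than in Vehicle (-0.52, SE 0.11, adjusted p = 0.0112; lost without Vehicle replicate 2 or sgSCR replicate 1), and its value with SA was -0.24 (SE 0.11, adjusted p = 0.178). In both arms the treated libraries were higher in the myeloid and lower in the lymphoid sums, without overlap. The stromal and epithelial sums overlapped with SA and were higher with sgALAS1. The myeloid rise was mostly LYZ, with means of 564 CPM in Vehicle, 1455 in SA, 341 in sgSCR and 1030 in sgALAS1. NPM1 went the other way, at 1291, 1033, 1177 and 1063 CPM. Of the 7 tested myeloid markers, 5 had values above 0 with SA and 6 with sgALAS1. CD3D held most lymphoid reads and was the only lymphoid marker tested. Besides VIM, only COL1A2 of the stromal and epithelial markers was tested, at a mean of 3.69 CPM. The part of these markers in the results on assembly genes was not tested.

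Only LYRM4, CISD1 and CISD2 among the 31 genes passed the test in any comparison, so the sequence at the start of these genes is printed from RefSeq, build GRCh38.p14, as 300 bases read 5′ to 3′ on the gene's strand. Capitals mark matches, on either strand, to the letters of 5 motifs: the GC box (GGGCGG), the CCAAT box (CCAAT), the E-box (CACGTG), the NRF1 motif and the C/EBP-ATF response element (TGATGNAA). The LYRM4 stretch lies at chr6:5260901-5261200 on the minus strand, CISD1 at chr10:58268912-58269211 and CISD2 at chr4:102868742-102869041, the latter pair on the plus strand.
LYRM4: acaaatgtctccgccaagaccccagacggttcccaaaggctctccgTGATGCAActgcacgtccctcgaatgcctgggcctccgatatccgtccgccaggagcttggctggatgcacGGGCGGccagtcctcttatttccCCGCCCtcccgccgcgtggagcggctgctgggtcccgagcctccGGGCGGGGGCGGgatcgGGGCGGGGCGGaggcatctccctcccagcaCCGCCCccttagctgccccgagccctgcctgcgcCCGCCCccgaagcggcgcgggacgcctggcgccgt
CISD1: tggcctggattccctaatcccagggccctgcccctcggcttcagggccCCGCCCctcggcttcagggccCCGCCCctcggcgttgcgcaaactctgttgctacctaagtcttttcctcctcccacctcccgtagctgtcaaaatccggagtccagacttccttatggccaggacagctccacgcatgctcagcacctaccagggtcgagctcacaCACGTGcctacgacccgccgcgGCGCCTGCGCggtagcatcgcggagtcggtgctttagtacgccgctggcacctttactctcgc
CISD2: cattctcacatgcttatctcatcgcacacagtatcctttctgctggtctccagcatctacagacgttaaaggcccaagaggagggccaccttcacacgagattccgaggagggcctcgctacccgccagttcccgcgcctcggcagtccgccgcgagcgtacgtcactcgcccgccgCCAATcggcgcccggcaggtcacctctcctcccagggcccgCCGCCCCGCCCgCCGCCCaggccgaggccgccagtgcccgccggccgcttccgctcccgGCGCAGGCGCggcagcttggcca
All 3 stretches are rich in G and C, at 72.0% for LYRM4, 64.3% for CISD1 and 69.7% for CISD2. GC boxes occurred 8 times in LYRM4, 2 times in CISD1 and 3 times in CISD2, some of them overlapping, and 45.0% of all 35116 promoters in the table held at least 1. CISD1 and CISD2, which encode related proteins, each held 1 NRF1 motif, found in 5.78% of all promoters. The E-box (7.26% of promoters) was in CISD1 only, the CCAAT box (34.6%) in CISD2 only and the C/EBP-ATF element (3.62%) in LYRM4 only. The letters of an antioxidant response element (TGACNNNGC, 13.3%) and of an ETS motif (CCGGAAG, 10.3%) were in none of these 3 windows. These are matches of letters, not shown sites of binding.

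The level of the 31 genes, as mean CPM over the 12 libraries, ran from 1.53 for NDOR1 to 164 for SLC25A37, with a median of 34.3; a 3′ tag counts a transcript once, so these levels do not scale with length. The mitochondrial machinery had a median of 28 CPM, with HSCB (4.86) and ABCB8 (5.17) at the low end and SLC25A37 and HSPA9 (133) at the high end. The cytosolic machinery had a median of 42.7 CPM, with CIAO2B (123) and CIAO2A (90.7) highest. Genes of low level are measured less well: the 95% interval of HSCB for SA against Vehicle ran from -0.70 to 1.01 on the log2 scale, and that of CIAO2A from -0.53 to -0.01.

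With SA, 1 of the 31 genes (3.23%) passed the test: CISD2 fell. The test called 11.1% of all tested genes, 6.24% as lower. At an unadjusted p under 0.05 there were 7 members (22.6%), 3 of them higher, where all genes gave 24.4%. The groups did not overlap for 8 members, 4 above and 4 below, where 27.4% of all genes did not overlap. With the guide against ALAS1, 2 of the 31 (6.45%) passed: LYRM4 and CISD1 fell. Here the test called 11.7% of all tested genes, 6.85% as lower. At an unadjusted p under 0.05 there were 6 members (19.4%), 1 of them higher, where all genes gave 24.8%, and the groups did not overlap for 8 members, 1 above and 7 below, where 29.1% of all genes did not overlap. The members' shares were near or under the background in each of these counts.

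The changes were small. The median log2 fold change of the 31 genes was -0.08 with SA and -0.14 with sgALAS1, against -0.0095 and -0.0034 over all tested genes. With sgALAS1, 23 of the 31 values were below 0, beside 6961 of all 13832 tested genes. With SA, 17 of the 31 were below 0, beside 7050 of all 13832. In each arm, 26 of the 31 genes had a 95% interval that stayed within 2-fold up or down, and 15 with SA and 16 with sgALAS1 stayed within 1.5-fold.

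**Figure D1:**
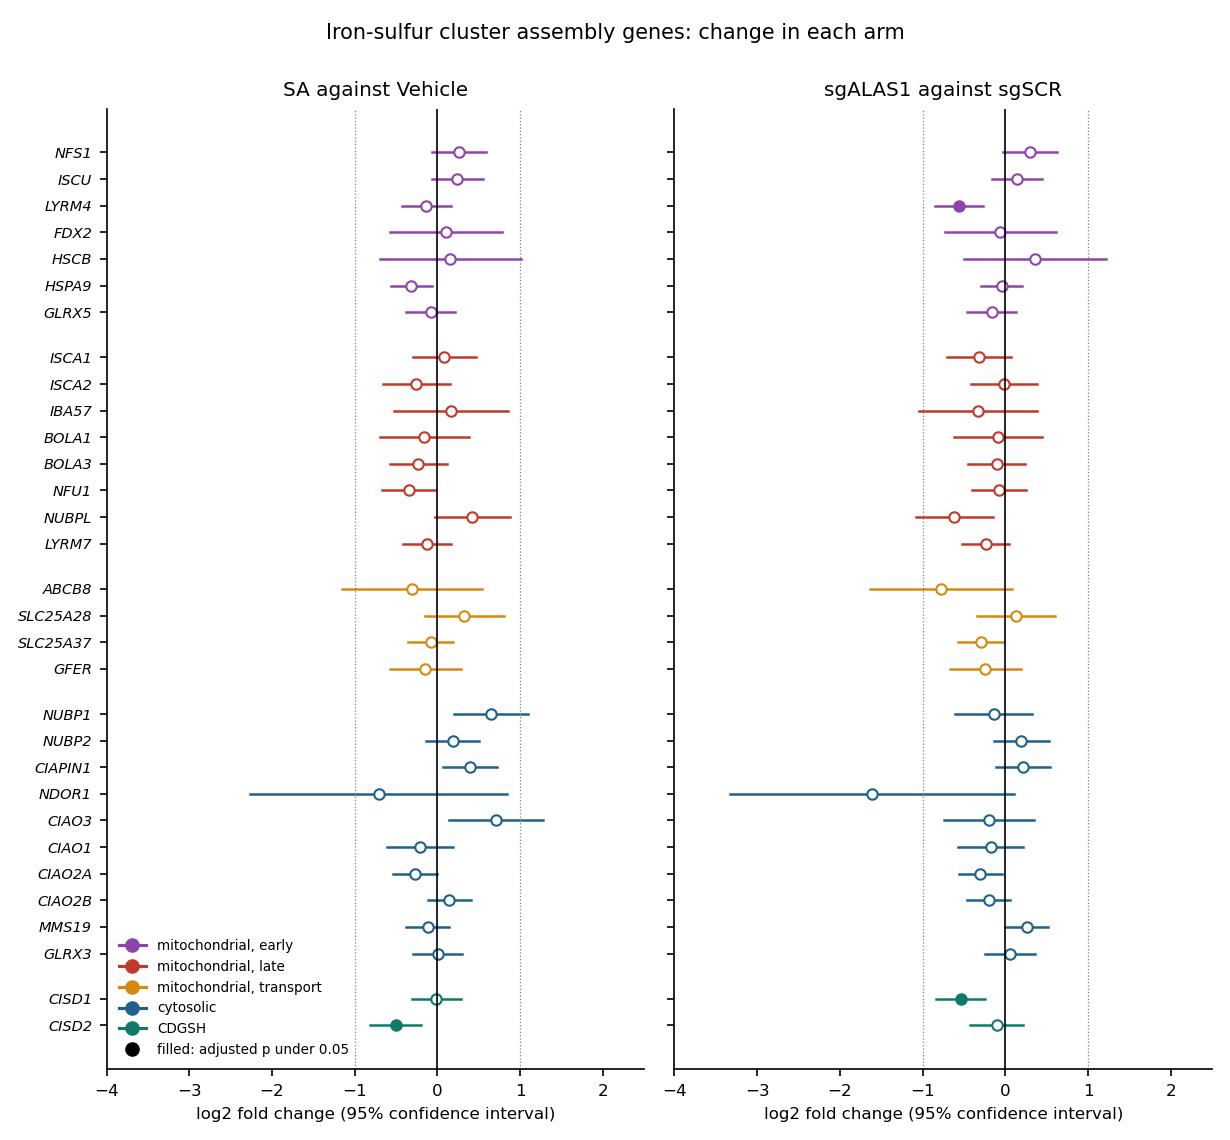
Log2 fold change (x axis) of each of the 31 assembly genes (y axis, grouped by role) for SA against Vehicle (left) and sgALAS1 against sgSCR (right); points are estimates from 3 libraries a group, lines are 95% confidence intervals, filled points passed an adjusted p of 0.05 and dotted lines mark 2-fold. CISD2 on the left and LYRM4 and CISD1 on the right are the filled points, all below 0, and NDOR1 has the widest intervals.

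Among the early mitochondrial genes, LYRM4 (ENSG00000214113, chromosome 6) fell with sgALAS1. LYRM4 encodes ISD11, the small protein without which NFS1 is not stable. Its level was 67.5, 54.2 and 67.3 CPM in sgSCR and 45.5, 38.9 and 43.7 CPM in sgALAS1. Every sgALAS1 library lay below every sgSCR library, and the log2 fold change was -0.56 (SE 0.14, adjusted p = 0.00897). Without sgALAS1 replicate 2 it was -0.50, with an adjusted p of 0.0544. In the drug arm it was 57.5, 46.0 and 47.2 CPM in Vehicle and 46.0, 46.4 and 45.1 CPM in SA. These ranges overlapped (log2 fold change -0.14, SE 0.14, adjusted p = 0.623). The difference between the effects in the arms was -0.42, with a 95% interval from -0.84 to -0.01 (adjusted p = 0.412), so a different response of LYRM4 in the arms did not pass the test. The tested genes of chromosome 6 had a median of -0.16 with sgALAS1 and -0.15 with SA, and the part of this in LYRM4 was not tested.

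NFS1 and ISCU, the enzyme and the scaffold that LYRM4 works with, did not pass in either arm, and their estimates were above 0. NFS1 (ENSG00000244005) was at 35.9, 29.3 and 30.8 CPM in sgSCR and at 43.1, 36.3 and 38.6 CPM in sgALAS1, and at 30.1, 29.1 and 26.4 CPM in Vehicle and 30.7, 38.0 and 33.9 CPM in SA. It was the only member whose treated libraries all lay above their controls in both arms. Its log2 fold changes were 0.30 with sgALAS1 (SE 0.16, edgeR adjusted p = 0.24) and 0.26 with SA (SE 0.16, edgeR adjusted p = 0.334). ISCU was at 45.0, 38.7 and 45.1 CPM in sgSCR and 42.3, 51.1 and 49.0 CPM in sgALAS1, and at 39.7, 32.7 and 35.7 CPM in Vehicle and 39.6, 47.6 and 41.0 CPM in SA. Its groups overlapped in both arms (0.14 with sgALAS1 and 0.24 with SA). ROMO1 overlaps NFS1 on the opposite strand and had 13266 reads against 2298. Overlaps were taken over whole gene spans, and whether they reach the 3′ ends where the reads lie was not checked. The sources used here do not say whether counting used strand, so whether such pairs share reads was not tested.

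NDUFAB1, the acyl carrier protein that binds LYRM4 and is not among the 31 genes, fell with both treatments, from 108 ± 3.93 to 74.5 ± 3.28 CPM with SA and from 106 ± 7.44 to 73.9 ± 3.18 CPM with sgALAS1 (mean ± SD, n = 3). Its log2 fold change was -0.53 (SE 0.12) in each arm, with adjusted p-values of 0.00285 and 0.00261. Of these 5 genes of the assembly complex, NFS1, ISCU and FDX2 thus passed in neither arm, NDUFAB1 fell in both and LYRM4 fell with sgALAS1.

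**Figure D2:**
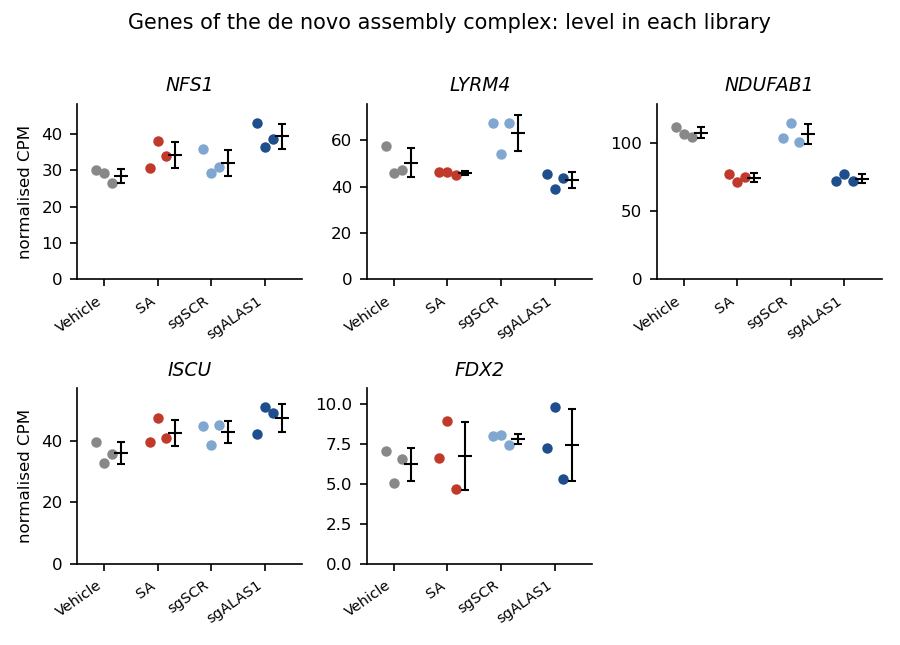
Level (y axis, normalised CPM, from 0) of 5 genes of the cluster assembly complex in each of the 12 libraries (points, by group on the x axis), with mean ± SD (bars, n = 3). LYRM4 and NDUFAB1 lie lower in sgALAS1 than in sgSCR without overlap, NDUFAB1 also in SA against Vehicle, and NFS1 lies above its controls in both treated groups without passing the test.

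The genes of cluster transfer within the mitochondrion showed no change past the threshold. HSPA9, the mitochondrial chaperone of the Hsp70 family, was at 139, 182 and 143 CPM in Vehicle and at 119, 126 and 128 CPM in SA, with -0.32 on the log2 scale (SE 0.12, adjusted p = 0.097). All SA libraries were below all Vehicle libraries, but sgSCR (129, 127 and 130 CPM) was as low as SA, and sgALAS1 held 117, 140 and 116 CPM. HSCB, its partner of the J-protein family, was at 5.10, 2.71 and 5.66 CPM in Vehicle, 7.19, 4.38 and 3.57 in SA, 3.78, 4.82 and 4.30 in sgSCR and 4.78, 4.0 and 7.98 in sgALAS1. HSCB overlapped in every comparison and its sign with SA turned when Vehicle replicate 2 or SA replicate 1 was left out. GLRX5, the glutaredoxin that receives the cluster, was at 85.4, 77.7 and 104 CPM in Vehicle, 91.1, 82.0 and 79.3 in SA, 96.2, 82.0 and 93.4 in sgSCR and 75.0, 101 and 65.4 in sgALAS1. Its log2 fold changes were -0.08 and -0.17, within the spread. FDX2 had 0.11 and -0.06, but its 486 reads may be shared with 2 other identifiers at its locus on the same strand, which held 471 and 1688.

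Of the 8 late-acting mitochondrial genes, which make and place the larger clusters of aconitase, lipoate synthase and the respiratory chain, none passed in either arm by edgeR; at an unadjusted p under 0.05 there was 1 in each, and the DESeq2 calls for all 19 mitochondrial genes were 0 with SA and LYRM4 alone with sgALAS1. NFU1, which hands clusters to lipoate synthase, was at 41.2, 37.7 and 38.8 CPM in Vehicle and at 27.2, 31.6 and 33.7 CPM in SA, without overlap (-0.35, SE 0.16, adjusted p = 0.164). In the guide arm NFU1 overlapped, at 35.9, 36.2 and 31.2 CPM in sgSCR and 31.5, 36.3 and 30.1 CPM in sgALAS1 (-0.07). With sgALAS1 all 8 late genes had values below 0, from -0.62 for NUBPL to -0.02 for ISCA2, and the ISCA2 value turned sign when sgSCR replicate 3, sgALAS1 replicate 1 or sgALAS1 replicate 3 was left out.

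NUBPL, which helps to place clusters in respiratory complex I, had estimates of opposite sign in the arms. It was at 11.7, 11.8 and 14.3 CPM in Vehicle and at 18.3, 16.3 and 16.1 CPM in SA. In the guide arm it was at 15.7, 15.1 and 17.9 CPM in sgSCR and at 8.18, 12 and 11.7 CPM in sgALAS1. All SA libraries were above Vehicle and all sgALAS1 libraries below sgSCR, with log2 fold changes of 0.42 (SE 0.22, adjusted p = 0.247) and -0.62 (SE 0.23, adjusted p = 0.0756). The difference of -1.04 (SE 0.32, 95% interval -1.69 to -0.39) had the smallest edgeR p of the 31 genes, at 0.0028. After adjustment over all tested genes it was 0.122, and so the difference was not called. NUBPL was also higher in sgSCR than in Vehicle, without overlap, but did not pass there (0.36, SE 0.22, edgeR adjusted p = 0.529). What the unlike controls add to the opposite signs was not tested.

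With SA the other late factors had estimates of either sign, and no pair of genes was compared by a test. ISCA1 and ISCA2, the A-type scaffolds that act together, had log2 fold changes of 0.08 (SE 0.19) and -0.26 (SE 0.20) with SA, and -0.32 (SE 0.19) and -0.02 (SE 0.19) with sgALAS1. IBA57, their folate-binding partner, had 0.16 (SE 0.34) and -0.33 (SE 0.35). BOLA1 and BOLA3, which act beside GLRX5 and NFU1, were between -0.23 and -0.09 in both arms. LYRM7, a chaperone of the Rieske protein of complex III, had -0.13 (SE 0.14) and -0.24 (SE 0.14), and HINT1, which overlaps it on the other strand, held 15819 reads against its 5111.

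Of the transport and intermembrane space genes, SLC25A37 (mitoferrin 1), the iron importer best known from developing red cells, was the most abundant of the 31 genes. It was at 193, 173 and 159 CPM in sgSCR and at 146, 136 and 144 CPM in sgALAS1, below in every library (-0.30, SE 0.14, adjusted p = 0.166). In the drug arm the Vehicle libraries, at 194, 199 and 131 CPM, spanned those of SA, at 164, 148 and 184 CPM (-0.08, SE 0.13). The gene lies on chromosome 8, whose tested genes had medians of -0.34 with sgALAS1 and -0.25 with SA; what this adds to SLC25A37 was not tested. SLC25A28 (mitoferrin 2), its more widely expressed paralog, had 0.13 (SE 0.23) with sgALAS1 and 0.32 (SE 0.23) with SA. ABCB8, a transporter of the inner membrane, had -0.78 (SE 0.42) with sgALAS1 and -0.31 (SE 0.42) with SA. It was at about 5.17 CPM, too few reads to separate from 0. GFER, the sulfhydryl oxidase of the intermembrane space, had -0.24 (SE 0.21) with sgALAS1 and -0.15 (SE 0.21) with SA.

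The cytosolic machinery had no call in either arm. With SA, edgeR called 0 of 10 and DESeq2 0 of 10, and 4 of 10 had an unadjusted p under 0.05 (3 by DESeq2), where edgeR gave 24.4% of all genes. NUBP1, CIAPIN1 and CIAO3 were the 3 with higher values, and CIAO2A was the lower one. With sgALAS1, edgeR and DESeq2 again called 0 of 10, with 2 of 10 at an unadjusted p under 0.05 (3 by DESeq2), where edgeR gave 24.8% of all genes: CIAO2A was lower and MMS19 higher. The median of the 10 was 0.07 with SA and -0.16 with sgALAS1.

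NUBP1, an ATPase of the cytosolic scaffold, was at 28.3, 21.5 and 18.4 CPM in Vehicle and at 38.7, 27.9 and 40.7 CPM in SA. SA replicate 2 lay just below Vehicle replicate 1, and the log2 fold change of 0.65 (SE 0.22) had an adjusted p of 0.0545. It passed, at 0.0200 to 0.0348, without the filter on low counts, in a fit of the drug arm alone, with a replicate block, and without Vehicle replicate 1, SA replicate 2 or, from the other arm, sgALAS1 replicate 2 or 3. In the guide arm NUBP1 was at 26.1, 22 and 22 CPM in sgSCR and at 21.6, 13.1 and 29.3 CPM in sgALAS1, which spread on either side (-0.14, SE 0.23). The difference of the effects was -0.79 (95% interval -1.44 to -0.14, adjusted p = 0.288). NUBP2, which forms the scaffold with NUBP1, had 0.18 (SE 0.16) with SA and 0.19 (SE 0.16) with sgALAS1.

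CIAPIN1 (anamorsin), the electron donor of the scaffold, was at 39.9, 35.5 and 39.3 CPM in Vehicle and at 58.3, 40.0 and 52.0 CPM in SA (0.39, SE 0.16, adjusted p = 0.119). The groups did not overlap, although SA replicate 2 was just above Vehicle replicate 1, and the adjusted p was 0.0465 without SA replicate 2. In the guide arm it was at 43.6, 34.1 and 45.3 CPM in sgSCR and at 46.6, 42.5 and 53.6 CPM in sgALAS1, which overlapped (0.21, SE 0.16). NDOR1, the reductase that feeds CIAPIN1, had the lowest level: 33 reads over the sgSCR libraries and 10 over the sgALAS1 libraries. Its log2 fold change of -1.61 had a 95% interval from -3.33 to 0.11, the widest of the 31 genes, and no change could be detected at this depth.

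CIAO3 (NARFL), which links scaffold and targeting complex, was at 8.0, 4.74 and 5.66 CPM in Vehicle and at 11.1, 9.95 and 9.40 CPM in SA (0.71, SE 0.28, adjusted p = 0.0972). No library overlapped, and without Vehicle replicate 1 the value was 0.96 with an adjusted p of 0.0448. It was at 10.6, 13.7 and 10.9 CPM in sgSCR and at 10.0, 10.2 and 10.4 CPM in sgALAS1, so the Vehicle libraries lay below those of every other group. The HAGHL gene on the opposite strand held 1382 reads against the 655 of CIAO3.

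In the targeting complex, CIAO1, its beta-propeller core, was at 34.1, 24.2 and 29.4 CPM in Vehicle, 18.1, 26.1 and 31.6 in SA, 34.3, 35.2 and 35.7 in sgSCR and 24.5, 32.9 and 36.3 in sgALAS1. It overlapped in both arms (-0.21, SE 0.20, and -0.17, SE 0.19). MMS19, which binds the DNA enzymes that receive clusters, was at 71.7, 79.7 and 90.4 CPM in sgSCR and at 105, 94.9 and 89.3 CPM in sgALAS1 (0.26, SE 0.13, adjusted p = 0.198). In the drug arm MMS19 was at 78.3, 87.2 and 73.4 CPM in Vehicle and 74.0, 73.6 and 72.3 CPM in SA (-0.12, SE 0.13). The groups overlapped in both arms.

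CIAO2A and CIAO2B are paralogs: CIAO2B serves most cytosolic and nuclear targets, and CIAO2A is known for its link to the iron regulator IRP1. CIAO2A was at 96.4, 98.5 and 106 CPM in Vehicle and at 90.7, 78.0 and 80.7 CPM in SA, and at 101, 108 and 88.3 CPM in sgSCR and 93.2, 72.0 and 75.8 CPM in sgALAS1. Its estimates were alike in the arms, -0.27 (SE 0.13, adjusted p = 0.188) and -0.30 (SE 0.13, adjusted p = 0.137), and neither passed. CIAO2B had 0.15 (SE 0.13) and -0.20 (SE 0.13). GLRX3, a glutaredoxin of the cytosol, was close to level, at 0.00 (SE 0.15) and 0.06 (SE 0.15).

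**Figure D3:**
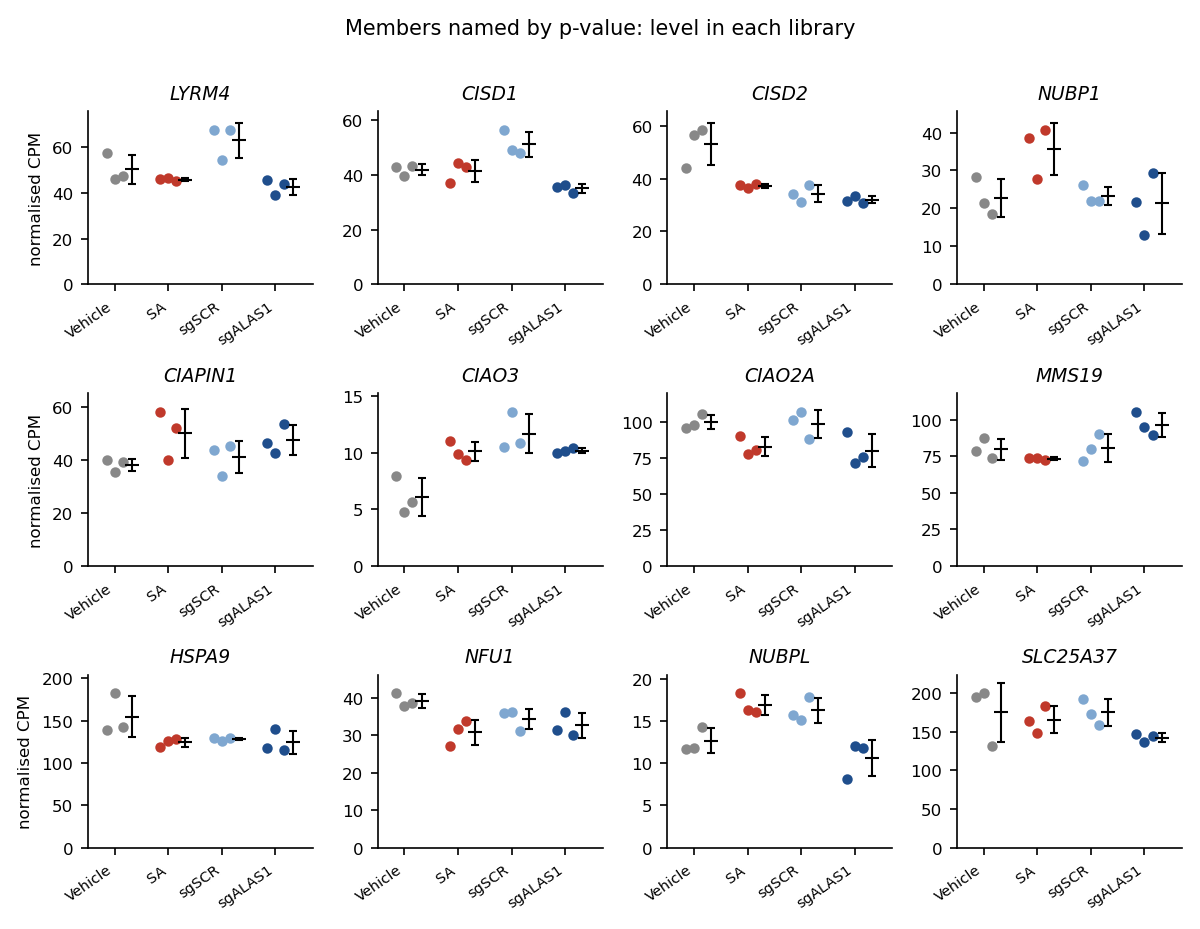
Level (y axis, normalised CPM, from 0) of the 12 assembly genes that passed the test or had an unadjusted p under 0.05 in either arm, in each of the 12 libraries (points, by group on the x axis), with mean ± SD (bars, n = 3). CISD2 is highest in Vehicle, LYRM4 and CISD1 are highest in sgSCR, and NUBP1 is highest in SA.

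The CDGSH genes each fell in 1 arm. CISD1 (ENSG00000122873, chromosome 10) encodes mitoNEET, a cluster protein of the outer mitochondrial membrane. It was at 56.4, 48.9 and 47.9 CPM in sgSCR and at 35.7, 36.3 and 33.2 CPM in sgALAS1. All sgALAS1 libraries were lower, and the log2 fold change was -0.54 (SE 0.15, adjusted p = 0.013), with adjusted p-values of 0.0795 without sgSCR replicate 1 and 0.0602 without sgALAS1 replicate 3. In the drug arm it was at 42.8, 39.4 and 43.4 CPM in Vehicle and at 36.9, 44.4 and 42.8 CPM in SA, which overlapped (-0.02, SE 0.15). The difference between the arms was -0.52 (95% interval -0.94 to -0.10, adjusted p = 0.277) and was not called.

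CISD2 (ENSG00000145354, chromosome 4) encodes a related protein of the endoplasmic reticulum, mutated in a form of Wolfram syndrome. It was at 43.9, 56.5 and 58.4 CPM in Vehicle and at 37.5, 36.4 and 37.8 CPM in SA, and fell by 0.50 on the log2 scale (SE 0.15, adjusted p = 0.0283). The call was lost without Vehicle replicate 2, Vehicle replicate 3 or any of the SA replicates, with adjusted p-values of 0.0708 to 0.136. The guide arm was low in both groups, at 34.1, 31.2 and 37.7 CPM in sgSCR and 31.6, 33.4 and 30.8 CPM in sgALAS1, which overlapped (-0.10, SE 0.16). The difference between the arms was 0.40 (95% interval -0.04 to 0.85, adjusted p = 0.483). SLC9B1, which overlaps CISD2 on the opposite strand, had 13.0% as many reads.

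The control groups of the arms differ in guide, doxycycline and time, and their comparison shows where the arms started from different levels. Of the 31 genes, 1 (3.23%) passed for sgSCR against Vehicle, where the test called 1.43% of all genes: CISD2 was lower in sgSCR, with a log2 difference of -0.62 (SE 0.15, adjusted p = 0.0275). The 5 members with an unadjusted p under 0.05 (16.1%) stood beside 12.6% of all genes. This comparison and SA against Vehicle share the Vehicle libraries, and the CISD2 call between the controls was lost without Vehicle replicate 2 or 3 or sgSCR replicate 1 or 2 (up to 0.176). CIAO3 was 0.92 higher in sgSCR (SE 0.27, adjusted p = 0.0944). LYRM4 and CISD1, which fell with sgALAS1, were 0.32 (SE 0.14, adjusted p = 0.325) and 0.28 (SE 0.14, adjusted p = 0.414) higher in sgSCR than in Vehicle.

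For the test of whether an effect differs between the arms, edgeR and DESeq2 each called 0 of the 31 genes, and edgeR called 1.19% of all tested genes. At an unadjusted p under 0.05 there were 6 members (19.4%) by edgeR, also 6 by DESeq2, where edgeR gave 11.9% of all genes. Of these 6, NUBPL, NUBP1, CIAO3, CISD1 and LYRM4 had differences below 0, from -1.04 to -0.42, and MMS19 had 0.38. A difference between the mitochondrial and the cytosolic machinery in their response was not tested. The 95% interval of the difference stayed within 2-fold for 23 of the 31 genes and for 6994 of all 13832 tested genes.

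The other genes of the pathway were read from 3 further lists. Of the 15 partners of assembly reported here, 13 were tested. With SA 3 of 13 fell (23.1%, against 6.24% of all genes): NDUFAB1, SDHAF3 (-0.80, SE 0.20, adjusted p = 0.00861), an assembly factor of complex II, and GRPEL2 (-0.80, SE 0.26, adjusted p = 0.0444), an exchange factor of HSPA9. GRPEL2 was at 14.5, 24.5 and 14.5 CPM in Vehicle and at 12.2, 9.15 and 9.40 CPM in SA, so Vehicle replicate 2 stood apart. Whether the SDHAF3 and GRPEL2 calls hold when a library is left out was not tested. With sgALAS1 1 of 13 fell, NDUFAB1 (7.69%, against 6.85% of all genes), and 8 had an unadjusted p under 0.05 (61.5%, against 24.8%), 7 of them lower. FDXR, the reductase that feeds FDX2, lay above its controls without overlap in both arms, at 0.47 (adjusted p = 0.0941) and 0.52 (adjusted p = 0.0596).

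Of the mitochondrial proteins that carry a cluster, 13 of 14 were tested. NDUFV2, a subunit of complex I, fell in both arms, from 70.5, 51.1 and 71.5 CPM in Vehicle to 43.5, 37.2 and 40.7 CPM in SA (-0.67, SE 0.15, adjusted p = 0.00374) and from 69.5, 65.1 and 54.6 CPM in sgSCR to 34.9, 29.6 and 35 CPM in sgALAS1 (-0.93, SE 0.16, adjusted p = 9.38e-05). Its 3510 reads lay beside 3646 of another identifier on the same strand, and the table may hold the same reads under both. NDUFV1, its neighbour in the complex, fell with sgALAS1 only by the threshold (-0.57, SE 0.12, edgeR adjusted p = 0.00197). With SA it had -0.26 (adjusted p = 0.185), and the difference of -0.30 was not called (adjusted p = 0.526). NDUFV1 was higher in sgSCR than in Vehicle, without overlap, but did not pass there (0.38, SE 0.12, edgeR adjusted p = 0.13). With SA 1 of the 13 passed (7.69%, against 11.1% of all genes) and with sgALAS1 2 (15.4%, against 11.7%), counts near the background. LIAS, the lipoate synthase that NFU1 serves, had -0.47 (SE 0.29, adjusted p = 0.337) and -0.65 (SE 0.29, adjusted p = 0.158).

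Of the cytosolic and nuclear cluster proteins, many of them clients of the CIAO complex, 23 of 27 were tested. With SA 1 fell (4.35%, against 6.24% of all genes called lower), POLA1, the catalytic subunit of DNA polymerase alpha (-0.73, SE 0.17, adjusted p = 0.00455). POLA1 had means of 43.1 CPM in Vehicle, 26.0 in SA and 29.2 in sgSCR. It was thus also lower in sgSCR than in Vehicle, without overlap, but did not pass there (-0.56, SE 0.17, edgeR adjusted p = 0.0987). With sgALAS1 6 fell (26.1%, against 6.85% of all genes called lower): POLA1 (-0.66, adjusted p = 0.0129), PRIM2 of the primase (-1.01, adjusted p = 0.0204), POLE of DNA polymerase epsilon (-0.58, adjusted p = 0.0173), EXO5, PPAT and ABCE1. EXO5, a DNA exonuclease, had 25 reads over the sgSCR libraries and 0 over the sgALAS1 libraries. Its pooled sgSCR level was 7.95-fold above a floor of 3 reads over the sgALAS1 group. That ratio leaves out the error of the 25 reads and is not a lower bound. The confidence interval of the fitted log2 fold change ran from -9.53 to -2.66. In the drug arm EXO5 had 18, 5 and 13 reads in Vehicle and 13, 2 and 0 in SA, and was not called (-0.97, SE 0.88). PPAT, the cluster enzyme that opens purine synthesis, and ABCE1, which recycles ribosomes, had -0.52 (adjusted p = 0.0432) and -0.39 (adjusted p = 0.0311). With sgALAS1, 8 of the 23 values were above 0. At an unadjusted edgeR p under 0.05 there were 12 (52.2%, against 24.8% of all genes), 2 of them higher. These 2 were DPYD (0.72, edgeR adjusted p = 0.0601) and DNA2 (0.59, edgeR adjusted p = 0.166). With SA there were 2 (8.7%, against 24.4%), both lower. ACO1 (IRP1), the cytosolic aconitase, was not called, at 0.39 (SE 0.21) with SA and 0.22 (SE 0.21) with sgALAS1. These lists describe the transcripts of cluster proteins; whether the proteins held their clusters was not measured, and no list was tested as a whole.

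**Figure D4:**
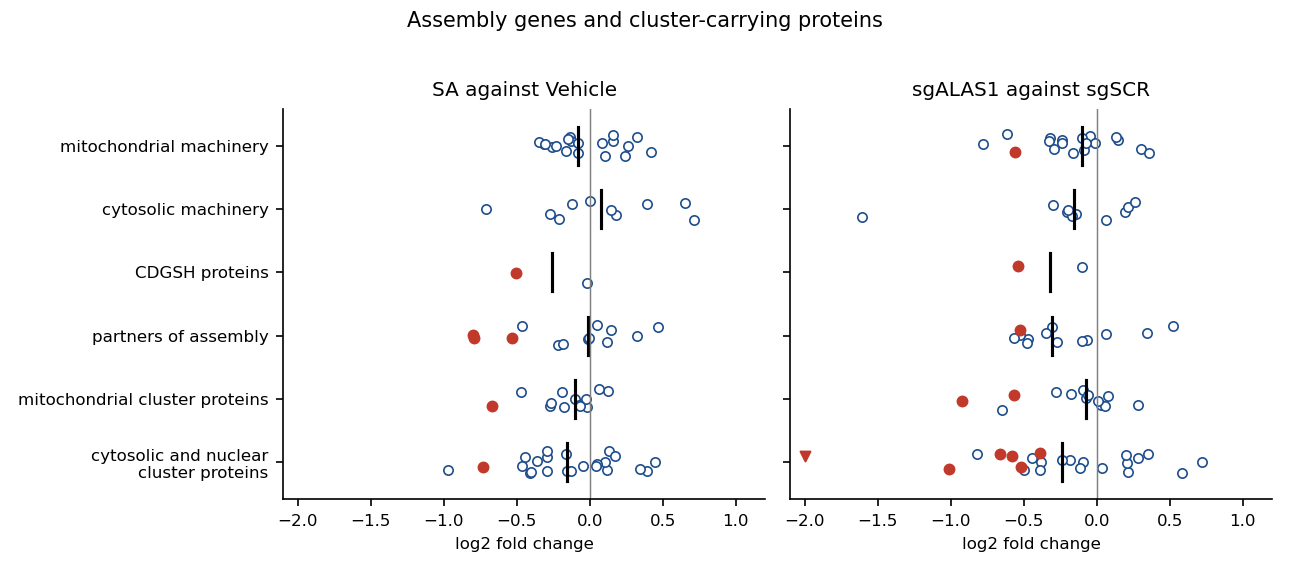
Log2 fold change (x axis) of every tested gene in 6 lists (y axis) for SA against Vehicle (left) and sgALAS1 against sgSCR (right); each point is 1 gene, red points passed an adjusted p of 0.05, black bars are medians, and the triangle is EXO5, whose fitted value lies beyond the axis. All red points lie below 0: 1 assembly gene on the left and 2 on the right, with more among the partners and the cluster proteins.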

How the data were processed

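Polyadenylated RNA was sequenced as single-end QuantSeq 3′ reads, per the labels' protocols. The submitters' processing notes list bcl2fastq 2.17.1.14, cutadapt 1.14, HISAT2 2.0.4, Subread 2.0.0 (featureCounts) and the build hg19. The authors deposited raw read counts per Ensembl gene, without normalisation; the sources used here give neither annotation release nor strand setting. Columns were matched to samples by the library names in the labels. A current gene table named 51996 identifiers and GENCODE 29 named 342; 5567 stayed unnamed. NCOA4, TYW1B and CISD3 were not analysed here, and a few genes of the pathway are not reported here.

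The 12 libraries entered 1 fit by group in edgeR 4.0.16 under R 4.3.3 (TMM, filterByExpr, two-sided quasi-likelihood test), and p-values were adjusted by Benjamini-Hochberg over the 13832 tested genes, with a threshold of 0.05. The SE is the log2 fold change divided by the square root of F. Common biological variation was 16.4%, and libraries of a group correlated at 0.959 to 0.971. Intervals are at 95%; a floor of 3 reads covers counting error only. DESeq2 1.42.0, RLE scaling, other filters, fits of single arms, a replicate block and leaving out each library were tried as alternatives. The fit was tested on simulated data. Values per library are given for genes past the threshold in any comparison or with an unadjusted p under 0.05 in either arm, and for NFS1, ISCU, HSCB, GLRX5, CIAO1 and MMS19; of other lists, up to 4 genes past the threshold are named, and the further genes named were chosen after their values were seen. The members and lists were chosen with earlier results of these data known.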

Additional observations from a re-analysis of the deposited data

Results flagged for a closer look

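The effect of ALAS1 differed between the arms past the threshold. It was higher in all SA libraries than in all Vehicle libraries, with a log2 fold change of 1.60 (SE 0.14), and lower in all sgALAS1 libraries than in all sgSCR libraries, with -0.56 (SE 0.14). The difference of these effects, sgALAS1 arm minus SA arm, was -2.16 (adjusted p = 1.14e-08 by edgeR's quasi-likelihood test). Leaving out single libraries gave differences from -2.23 to -2.10. VIM, which made up most of the stromal and epithelial marker sums, also differed between the arms, by 0.70 (SE 0.16, adjusted p = 0.0174 by the same test). Its values were -0.24 for SA and 0.46 for sgALAS1. With single libraries left out, the VIM difference was 0.60 to 0.80, with adjusted p-values up to 0.0957. The VIM call was lost without Vehicle replicate 2, SA replicate 1 or 3, sgSCR replicate 1 or sgALAS1 replicate 1 or 2.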

How the results depend on the processing

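For SA against Vehicle, 2 assembly genes (CISD2 and NUBP1) passed without the filter on low counts, in the fit of that arm alone and with the replicate block, against 1. Leaving out single libraries gave 0 to 3 for SA, 1 to 2 for sgALAS1, 0 for the difference between the arms and 0 to 2 between the controls. Over all genes it gave 954 to 1595, 1134 to 1761, 109 to 340 and 84 to 276 calls. The difference between the arms had 277 calls over all genes without the filter, against 164, and the controls 300 by DESeq2, against 198. Whether the replicate numbers pair the libraries is not settled by these data, with 3 libraries a group. Between groups that were compared, residuals of the same number correlated at -0.0661 to 0.0917 and others at -0.152 to 0.109. Over all groups the highest same-number value was 0.111. With the replicate block as a paired analysis, 1704, 1796, 227 and 266 genes passed over all genes, against 1531, 1622, 164 and 198 without it. Of the members, 2, 2, 0 and 1 passed, against 1, 2, 0 and 1. RLE scaling and DESeq2 called the same members as the reported fit. GLRX3 with SA turned to -0.011 without the filter.

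Of 78 results on single genes, 51 kept their sign and their side of the threshold under every alternative checked for them. For these results, only libraries of the compared groups were left out. A library of another group can matter too, since NUBP1 with SA passed without sgALAS1 replicate 2 or 3. Outside the assembly genes, only ALAS1, NDUFAB1, NDUFV2 and VIM were among these results. Signs turned when 1 library was left out, with SA for FDX2 (-0.15 to 0.32), HSCB (-0.18 to 0.37), GLRX5 (-0.17 to 0.048), ISCA1 (-0.012 to 0.20), IBA57 (-0.077 to 0.29), BOLA1 (-0.36 to 0.040), SLC25A37 (-0.25 to 0.018), GLRX3 (-0.028 to 0.041) and CISD1 (-0.071 to 0.057). With sgALAS1 they turned for FDX2 (-0.30 to 0.13), HSPA9 (-0.14 to 0.016), ISCA2 (-0.11 to 0.088), SLC25A28 (-0.16 to 0.28), NUBP1 (-0.41 to 0.11) and GLRX3 (-0.018 to 0.18). Low counts limit HSCB, ABCB8, FDX2, IBA57 and NDOR1 most. Where a group was left with 2 libraries, the spread came from the fit over all groups.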

Other observations

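SLC25A37, NUBP2 and GLRX3 were not part of the motif counts. Promoter windows of 300 bases were read for the other 28 of the 31 genes. A GC box was in 23 of them (82.1%, against 45.0% of all promoters in the table), a CCAAT box in 11 (39.3% against 34.6%) and an ETS motif in 5 (17.9% against 10.3%). The E-box and the NRF1 motif were each in 4 (14.3%, against 7.26% and 5.78%), the antioxidant response element in 3 (10.7% against 13.3%) and the C/EBP-ATF element in 1, LYRM4 (3.57% against 3.62%). These are counts of letters in windows whose base composition was not matched.

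Of the 31 genes, 15 overlapped another annotated gene that had reads, and for 11 that gene held at least 10% as many reads as the member. LYRM4 and CISD1 overlapped none with reads. SDHAF4, an assembly factor of complex II, was the partner gene that passed between the controls: it was at 13.2, 15.6 and 11.9 CPM in Vehicle and at 25.9, 30.2 and 21.8 CPM in sgSCR (0.94, SE 0.22, adjusted p = 0.0175 by edgeR's quasi-likelihood test).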
